A study of Rattus norvegicus with 6 samples.

Results

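Immediate early response genes were examined in the rat heart primordium before and after heartbeat initiation. The set comprised 10 genes, Fos, Fosb, Jun, Junb, Egr1, Ier2, Ier3, Atf3, Dusp1 and Klf2, and every array probe annotated with one of these symbols was taken. Of the 10 genes, 9 had a probe and Fosb had none under its symbol. The 9 genes were represented by 10 of the 30367 probes on the array, because Egr1 had 2 probes. All 10 probes were well above background on all arrays and belonged to the 19299 probes that entered the tests.

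Immediate early genes are transcribed within minutes of a stimulus and need no new protein synthesis for their induction. Growth factors, mechanical stretch, calcium entry and cell stress act through MAP kinases on factors already bound to the promoters, such as serum response factor with its partners and CREB. Many of the products are transcription factors, others are inhibitors that end the response, and the transcripts and proteins decay rapidly. In cardiac muscle, Fos, Jun and Egr1 are classical early markers of stretch and hypertrophic stimuli, and in endothelium Klf2 is known for its induction by laminar flow.

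RNA was obtained from heart primordia of Wistar rat embryos (spelled Wister rat in the sample labels) on embryonic day 10, with 3 arrays for each of the pre-heartbeat and post-heartbeat groups. Primordia with a flat central shape formed the pre-heartbeat group, and those with a raised central shape, from embryos with on average more somites, formed the post-heartbeat group. The labels give no treatment or genetic change for either group. Whole primordia were excised in buffered solution, so the RNA came from all cells of the excised tissue, and the sources used here do not say whether 1 array stood for 1 primordium or a pool. Samples of a group were labelled as biological replicates, and no litter was given. Values below are log2 signals less the array's 75th percentile.

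Arrays lay on 2 slides scanned in separate sessions. Of the pre-heartbeat arrays, replicate 1 lay on slide 1 and replicates 2 and 3 on slide 2, and of the post-heartbeat arrays, replicates 1 and 2 lay on slide 1 and replicate 3 on slide 2. Between 39375 and 41327 of 58717 non-control spots per array were well above background. All 16 cardiac muscle markers, among them Myl7, Tnni1 and Myh6, were detected and tested, and the mean of their log2 signals ranged from 2.16 to 2.52 over the pre-heartbeat arrays and from 2.88 to 2.94 after heartbeat initiation. Of the 8 leukocyte markers, Ptprc was below the detection rule for testing, and the mean of the 7 tested ones was between -4.03 and -3.79 on all arrays. In bulk tissue, fewer cells of a type and less RNA per cell cannot be told apart.

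Promoter sequences of 5 of the 10 genes, Fosb, Junb, Egr1, Ier2 and Dusp1, were found in the RefSeq promoter table of the GRCr8 assembly. The 250 bases before the annotated start are shown for the 4 of them that had a probe, because they differ in the elements through which early stimuli are known to act. Capitals mark, on either strand, the CArG box bound by serum response factor, the cyclic AMP response element TGACGTCA and its core TGACG, which is also contained in the full element.
Egr1 (chr18:26736828-26737077, plus strand): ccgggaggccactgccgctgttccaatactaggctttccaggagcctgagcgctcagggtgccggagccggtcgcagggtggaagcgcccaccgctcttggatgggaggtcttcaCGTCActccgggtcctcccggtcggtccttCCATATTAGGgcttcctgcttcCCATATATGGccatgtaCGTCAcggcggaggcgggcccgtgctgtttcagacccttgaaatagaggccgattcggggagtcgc
Junb (chr19:40080876-40081125, plus strand): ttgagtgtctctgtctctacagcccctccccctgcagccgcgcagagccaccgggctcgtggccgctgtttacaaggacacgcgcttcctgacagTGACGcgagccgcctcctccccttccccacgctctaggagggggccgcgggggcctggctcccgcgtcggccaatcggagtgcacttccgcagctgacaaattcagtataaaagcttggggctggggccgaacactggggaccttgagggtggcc
Ier2 (chr19:40399123-40399372, plus strand): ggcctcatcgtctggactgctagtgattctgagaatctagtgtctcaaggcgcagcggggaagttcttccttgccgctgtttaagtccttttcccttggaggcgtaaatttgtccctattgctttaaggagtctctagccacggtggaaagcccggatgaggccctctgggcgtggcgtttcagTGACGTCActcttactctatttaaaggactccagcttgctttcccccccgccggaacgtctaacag
Dusp1 (chr10:17184603-17184852, plus strand): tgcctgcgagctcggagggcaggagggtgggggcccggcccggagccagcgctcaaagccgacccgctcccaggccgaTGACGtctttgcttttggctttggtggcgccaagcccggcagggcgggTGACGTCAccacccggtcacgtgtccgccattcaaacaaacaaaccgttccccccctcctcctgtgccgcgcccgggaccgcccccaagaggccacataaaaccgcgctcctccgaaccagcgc
The Egr1 sequence held 2 CArG boxes, which began 105 and 83 bases before the start, and 2 copies of TGACG. A CArG box was present in 1.5% of the 33469 promoter sequences of this length in the table, the full element TGACGTCA in 1.59% and TGACG in 18.2%. Ier2 and Dusp1 each held the full element, beginning 66 and 124 bases before the start. Junb held 1 copy of TGACG alone, and the Fosb sequence, which is not shown, held none of these motifs. These matches describe letters in the window and were not tested as binding sites.

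After heartbeat initiation, no immediate early gene passed the limma test at an adjusted p under 0.05. Over all tested probes, 0.14% passed it in either direction, 23 of them higher and 4 lower. The mean signal was nevertheless higher in the post-heartbeat group for all 9 genes, with a median log2 difference of 0.35, whereas 44.7% of all tested probes were higher and their median difference was -0.033. A shift to one side was not particular to these genes, since 15 of 16 cardiac muscle markers were also higher, with a median of 0.58. The median difference of the 9 genes was 0.27 with the slide as a block and 0.21 with normexp background correction. It was smallest with pre-heartbeat replicate 2 left out. Without pre-heartbeat replicate 2, 7 of the 9 genes were higher, their median difference was 0.079, and 50.8% of all tested probes were higher with a median of 0.0042. Within slide 1, 6 of the 9 genes were higher beside 58.2% of all probes, and within slide 2 all 9 were higher beside 41.2%. Ier3 was the member whose groups did not overlap.

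Markers of other tissue were compared between the groups as well. Of 12 neural ectoderm markers, 5 were tested, with a median log2 difference of -0.53 and 1 of the 5 higher after heartbeat initiation. Their mean was between -1.76 and -1.02 before and between -2.93 and -2.21 after heartbeat initiation. Otx2 was lower by -1.56 (SE 0.14, limma adjusted p = 0.020), a call lost with any 1 array left out (limma adjusted p from 0.056 to 0.207). Lmx1a, which only 1 post-heartbeat array measured above background, differed by -3.66 (SE 0.63, limma adjusted p = 0.111). It entered the tests only through the pre-heartbeat group, and its dim post-heartbeat values weigh on the mean of the list. The mean of 8 tested erythroid markers was between -2.86 and -2.60 before and between -2.51 and -2.24 after heartbeat initiation. Of these 8, 5 were higher and 0 passed the limma threshold. All 6 tested paraxial mesoderm markers were higher, with a median log2 difference of 0.35. Of 11 tested endoderm and yolk sac markers, 2 were higher, with a median of -0.23. In either list 0 passed the threshold. The part of these tissues in the values of the immediate early genes was not tested.

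**Figure D1:**
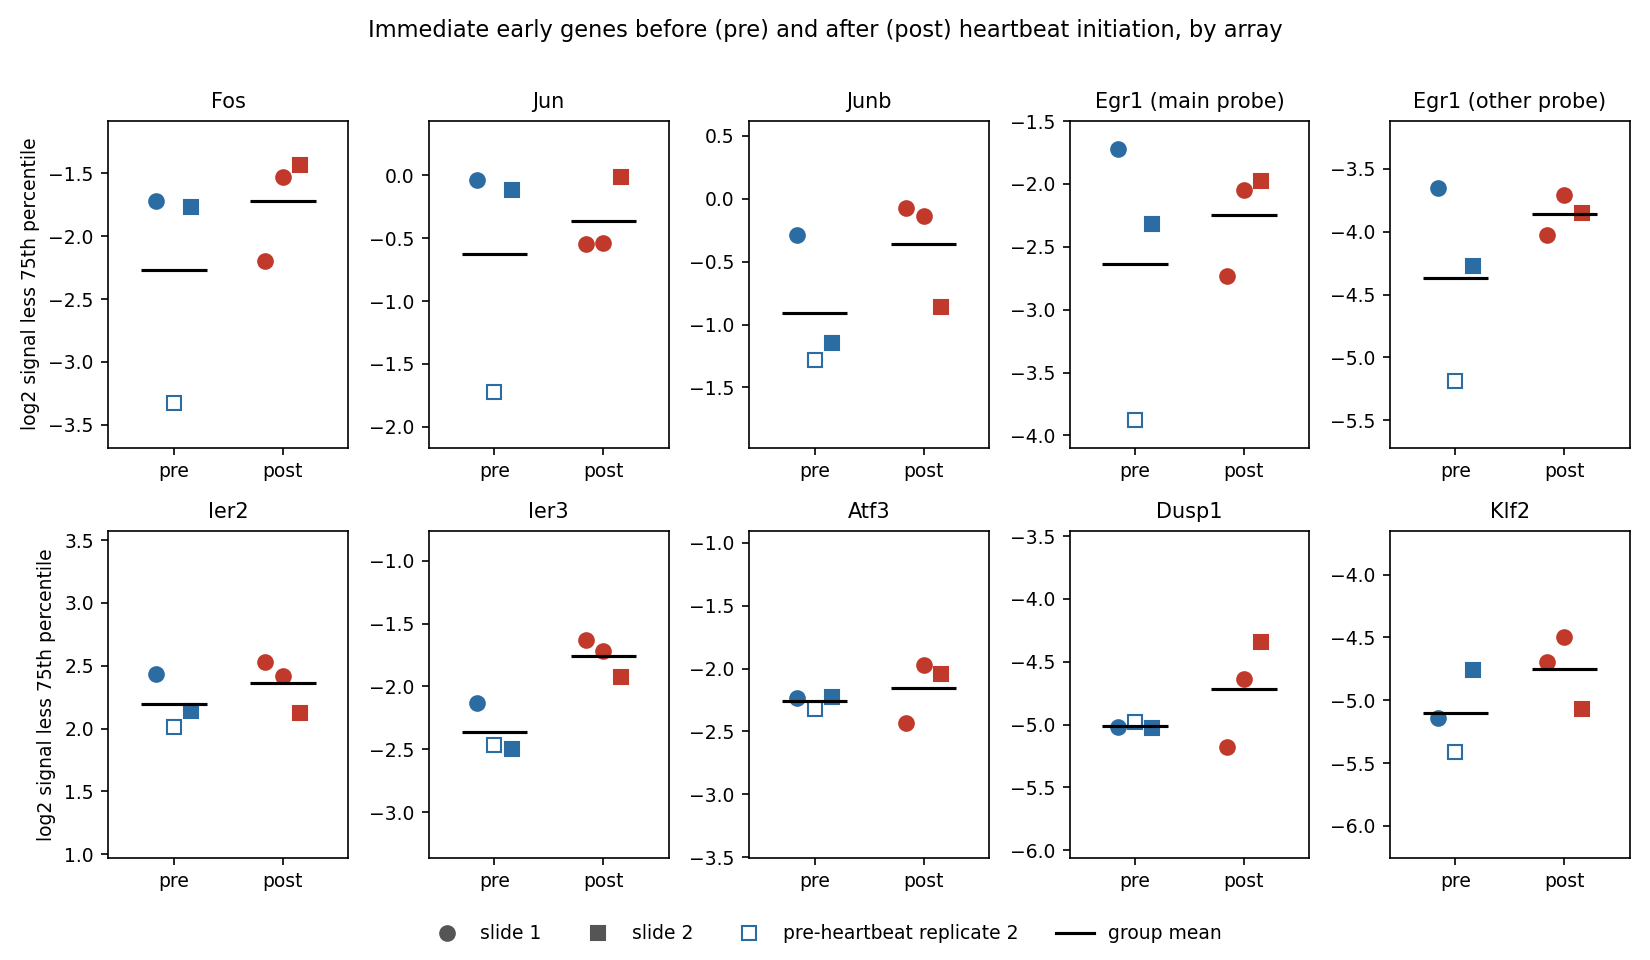
Each panel plots the log2 signal of 1 probe less the 75th percentile of its array, for the 3 pre-heartbeat (blue) and 3 post-heartbeat (red) arrays, with circles for slide 1, squares for slide 2 and black lines for group means. All panels span the same height on the log2 scale, and pre-heartbeat replicate 2 (open square) lies far below the other arrays for Fos, Jun and Egr1, while the groups are apart for Ier3.

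The AP-1 transcription factor is a dimer of Fos and Jun family proteins. Fos encodes the prototype of the family, whose transcript is among the most rapidly induced in many cells, and its probe lies at chr6:109561941-109562000 in rn4, the build of the array annotation. The signal of Fos was -1.72, -3.33 and -1.77 in pre-heartbeat replicates 1, 2 and 3 and -2.20, -1.53 and -1.44 in post-heartbeat replicates 1, 2 and 3. Pre-heartbeat replicate 2 was the lowest array, and the other arrays lay between -2.20 and -1.44 with both groups mixed. The group means were -2.27 ± 0.91 (SD, n = 3) and -1.72 ± 0.42 (SD, n = 3), a log2 difference of 0.55 (SE 0.45, limma adjusted p = 0.866, two-sided exact permutation p = 0.5). For every gene, the exact test cannot give a p below 0.1 with 3 arrays against 3. The difference of Fos was 0.48 with the slide as a block, -0.14 within slide 1, 1.11 within slide 2 and 0.023 without pre-heartbeat replicate 2.

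Jun encodes the DNA-binding partner of Fos and is a substrate of JNK. Its probe, at chr5:115359410-115359469 on the minus strand, gave -0.039, -1.72 and -0.12 in pre-heartbeat replicates 1 to 3 and -0.55, -0.54 and -0.012 in post-heartbeat replicates 1 to 3. As for Fos, pre-heartbeat replicate 2 alone was low, and the other pre-heartbeat arrays were at the level of the highest post-heartbeat array. The log2 difference was 0.26 (SE 0.45, limma adjusted p = 0.881, two-sided exact permutation p = 0.8). It was -0.50 within slide 1 and 0.91 within slide 2, and it turned to -0.29 (SE 0.21, limma adjusted p = 0.999) without pre-heartbeat replicate 2.

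Junb encodes an AP-1 subunit with weaker activating capacity than Jun. At its probe, chr19:24833225-24833284, the signal was -0.29, -1.28 and -1.15 in the pre-heartbeat arrays and -0.076, -0.14 and -0.86 in the post-heartbeat arrays, in order of replicate. Unlike Fos and Jun, the signal followed the slide, with the 3 arrays of slide 2 below the 3 of slide 1 in both groups. Slide 2 was lower than slide 1 by a log2 difference of -0.84 (SE 0.13, limma adjusted p = 0.0071), the only difference between slides past the threshold among the members. Over all tested probes, 8.75% were lower on slide 2 by the same test. This call was lost without pre-heartbeat replicate 1 or without post-heartbeat replicate 3. Between the groups, Junb differed by 0.55 (SE 0.33, limma adjusted p = 0.866, two-sided exact permutation p = 0.2), and the fit with slides as blocks gave 0.27 (SE 0.13, limma adjusted p = 0.636). Within slide 1 the difference was 0.18, and within slide 2 it was 0.35.

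Atf3 encodes a bZIP factor that is induced by stress and often represses its targets. The Atf3 signal, at chr13:107191691-107191749 on the minus strand, was -2.23, -2.32 and -2.23 before and -2.44, -1.97 and -2.04 after heartbeat initiation in replicates 1 to 3. The pre-heartbeat arrays were close together and lay between the post-heartbeat values. The log2 difference was 0.11 (SE 0.17, limma adjusted p = 0.869, two-sided exact permutation p = 0.5), and its values within slides 1 and 2 were 0.030 and 0.23.

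Egr1 encodes a zinc finger transcription factor whose promoter window held the CArG box matches shown above. It had a probe of 10 spots at chr18:27347173-27347232 and another of 2 spots at chr18:27346058-27346117. The first probe gave -1.72, -3.88 and -2.31 in pre-heartbeat replicates 1 to 3 and -2.73, -2.04 and -1.97 in post-heartbeat replicates 1 to 3, with 6 spot readings left out as outliers. The second gave -3.65, -5.19 and -4.27 before and -4.03, -3.70 and -3.85 after heartbeat initiation. On both probes, pre-heartbeat replicate 2 was the lowest and pre-heartbeat replicate 1 the highest array. The log2 difference was 0.39 (SE 0.53, limma adjusted p = 0.866, two-sided exact permutation p = 0.7) on the first probe and 0.51 (SE 0.37, limma adjusted p = 0.866, two-sided exact permutation p = 0.4) on the second. Within slide 1, Egr1 was lower after heartbeat initiation, by -0.67 and -0.22 on the first and second probe, whereas within slide 2 it was higher by 1.12 and 0.88. Without pre-heartbeat replicate 2 the first probe turned to -0.23 (SE 0.31) and the second was at 0.099 (SE 0.23).

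Klf2 encodes a Krüppel-like factor of endothelium and endocardium. At chr16:17942544-17942603 on the minus strand, its signal was -5.14, -5.41 and -4.76 in pre-heartbeat replicates 1 to 3 and -4.70, -4.50 and -5.07 in post-heartbeat replicates 1 to 3. The groups overlapped, since pre-heartbeat replicate 3 was above post-heartbeat replicate 3. The log2 difference of 0.35 (SE 0.23, limma adjusted p = 0.866, two-sided exact permutation p = 0.2) was 0.54 within slide 1 and 0.015 within slide 2. The mean over the 17 tested endothelial markers ranged from -0.85 to -0.78 over the pre-heartbeat arrays and from -0.96 to -0.74 after heartbeat initiation. This mean averages differences in both directions, with 6 of the 17 higher and 0 past the limma threshold. With the slide as a block, Cldn5 was lower by -0.93 (SE 0.17, limma adjusted p = 0.043).

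Among the effectors and feedback inhibitors, Ier3 encodes a small protein linked to survival under stress and to ERK signaling. Its probe of 10 spots, at chr20:3076832-3076891 on the minus strand, gave -2.13, -2.47 and -2.50 in pre-heartbeat replicates 1 to 3 and -1.63, -1.72 and -1.93 in post-heartbeat replicates 1 to 3. Every post-heartbeat array was above every pre-heartbeat array, and pre-heartbeat replicate 2 did not stand apart. Groups did not overlap with post-heartbeat higher for 5.38% of all tested probes, beside which 1 of 9 genes is no result about the set. The means were -2.36 ± 0.20 and -1.76 ± 0.15 (SD, n = 3 for both), a log2 difference of 0.61 (SE 0.17) or 1.52 fold. The unadjusted limma p was 0.0081, a level under 0.05 that 3.91% of all tested probes reached in this direction, and the adjusted p was 0.329. The exact permutation test gave its smallest possible two-sided p, 0.1. Within slide 1 the difference was 0.45 and within slide 2 it was 0.55, and with the slide as a block it was 0.50 (SE 0.13, limma adjusted p = 0.139). In this blocked fit, 1.62% of all tested probes and none of the 9 genes passed the adjusted threshold.

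By the selection named in the study's methods, which takes rises of at least 1.5 fold with a Tukey HSD p under 0.05, applied here without adjustment for multiple tests, Ier3 was the 1 member selected, beside 1.89% of all tested probes. Ier3 left this selection with normexp background correction, with quantile normalization, and without pre-heartbeat replicate 2 or 3 or post-heartbeat replicate 1 or 2. Its difference remained between 0.47 and 0.72 under all 18 alternative settings, some of which leave the difference unchanged by design.

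Ier2 encodes a nuclear protein of the early response with a role in transcription. In order of replicate, its probe at chr19:25160648-25160707 gave 2.43, 2.01 and 2.14 before and 2.53, 2.42 and 2.13 after heartbeat initiation, so that again the arrays of slide 2 were the lower ones. The log2 difference between the groups was 0.16 (SE 0.18, limma adjusted p = 0.866, two-sided exact permutation p = 0.5). It was 0.042 within slide 1 and 0.050 within slide 2, and slide 2 was lower than slide 1 by -0.35 (SE 0.13, limma adjusted p = 0.105).

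Dusp1 encodes a nuclear phosphatase that inactivates MAP kinases and thereby limits the response. Its probe was mapped from chr10:16944342 to 16944661, a span of 320 bases, and gave -5.02, -4.98 and -5.03 in pre-heartbeat replicates 1 to 3 and -5.18, -4.64 and -4.34 in post-heartbeat replicates 1 to 3. The pre-heartbeat values were nearly equal (SD 0.023, n = 3), whereas the post-heartbeat values were spread on both sides of them (SD 0.43, n = 3). The log2 difference was 0.29 (SE 0.22, limma adjusted p = 0.866, two-sided exact permutation p = 0.4), and it was 0.11 within slide 1 and 0.67 within slide 2.

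**Figure D2:**
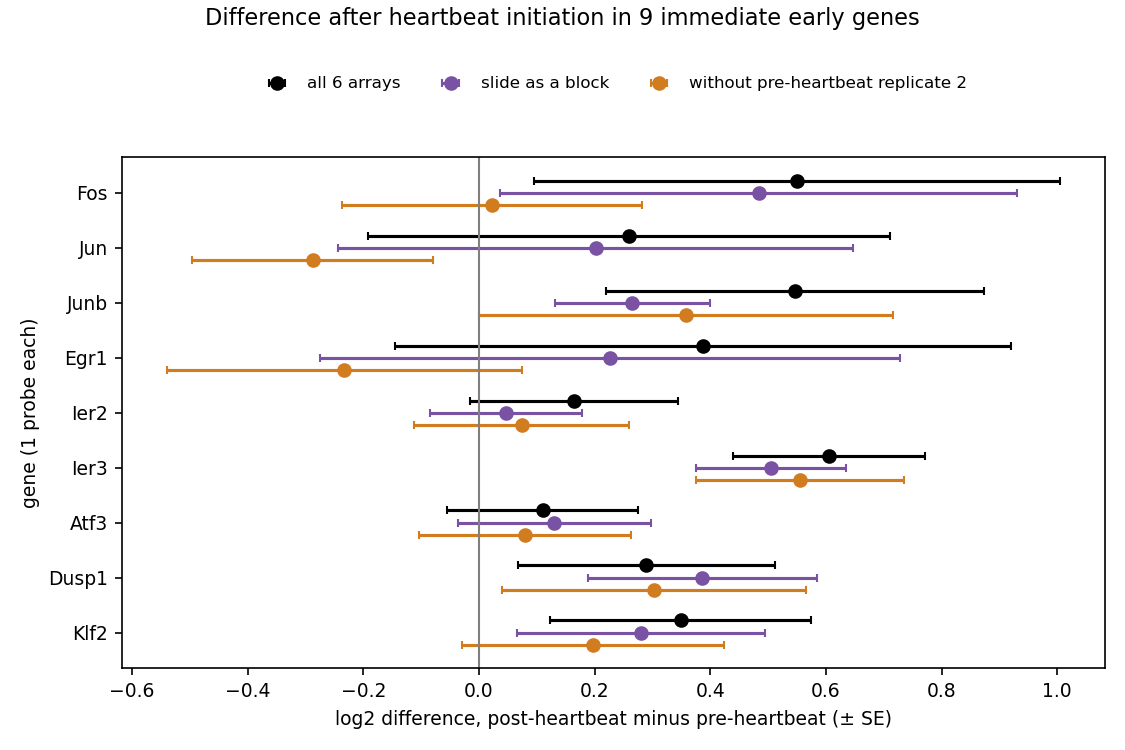
Points are log2 differences, post-heartbeat minus pre-heartbeat, with standard errors as bars, for 1 probe of each of the 9 genes with all 6 arrays (black), with the slide as a block (purple) and without pre-heartbeat replicate 2 (orange). Without that array Fos is at 0.023, Jun at -0.29 and Egr1 at -0.23, while Ier3 stays at 0.55.

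The low array was compared with pre-heartbeat replicate 3, the array of the same group on the same slide. Pre-heartbeat replicate 2 was below it by a log2 difference of -1.56 for Fos, -1.60 for Jun and -1.56 for Egr1, equal to 2.95, 3.04 and 2.95 fold. The second Egr1 probe differed by -0.91. Such a gap of 2 fold or more was found for 2.4% of all tested probes and for 3 of the 9 genes. The array was singled out by the low values of these same genes, so the count is no result about the set. Jun, Egr1 and Fos were each within the lowest 0.378% of the tested probes, a percentile that describes these 2 arrays and is no test. Klf2 differed by -0.65, and Junb, Ier2, Ier3, Atf3 and Dusp1 lay between -0.13 and 0.045, near the median of all probes of 0.092. Pre-heartbeat replicate 2 was also the lowest array for Junb, Ier2 and Klf2, but without a gap of 2 fold below replicate 3. Among 17 other immediate early transcription factors the median gap was -0.56, against -0.13 for the 9 genes. Klf4 had a gap of -1.20 or 2.30 fold, the only one of that list past 2 fold, and Nr4a3 had one of -0.97, both named after their values were seen. Both were well above background on only 2 of the 3 pre-heartbeat arrays and lowest on pre-heartbeat replicate 2, so these gaps may hold a value near the floor. A span of 1 or more over the 6 arrays on the log2 scale was present for 4 of the 9 genes, Fos, Jun, Junb and Egr1, and for 25% of all tested probes.

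**Figure D3:**
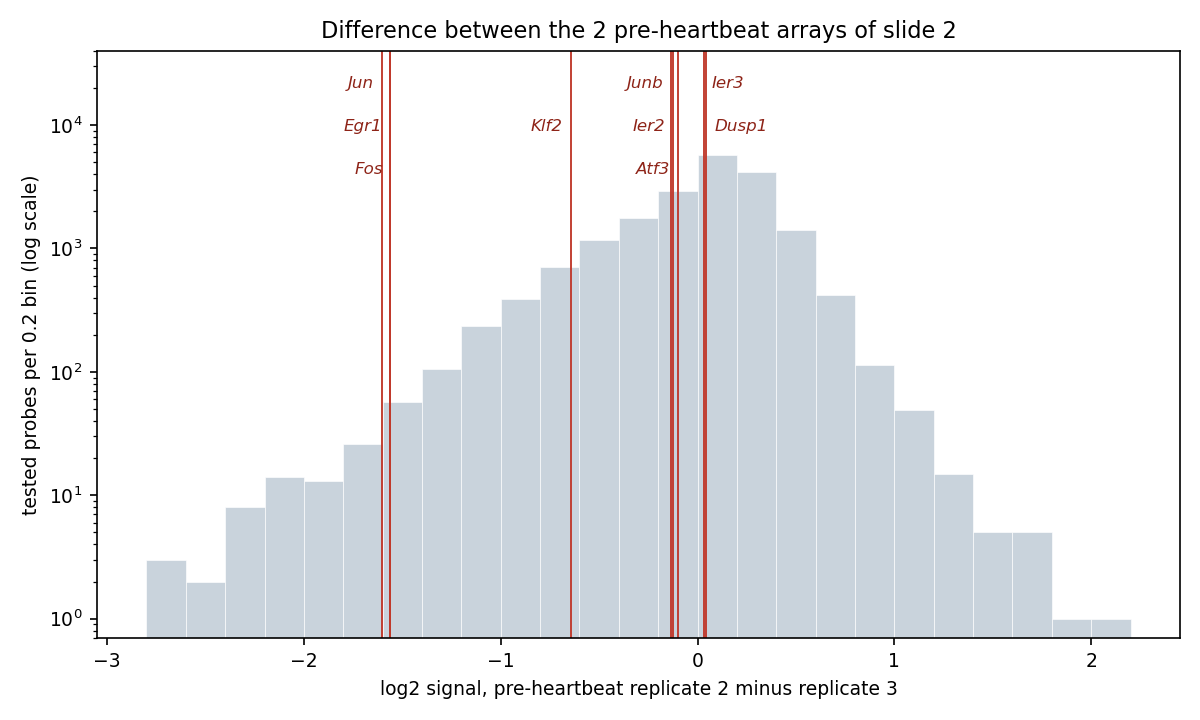
Bars count tested probes by the log2 signal of pre-heartbeat replicate 2 minus that of pre-heartbeat replicate 3, in bins of 0.2 and on a log scale, and red lines mark 1 probe of each of the 9 genes. Jun, Fos and Egr1 lie between -1.60 and -1.56 in the lower tail, and Klf2 is at -0.65.

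Other measures were compared on pre-heartbeat replicate 2. It had the lowest 75th percentile, 1146 intensity units against 1268 to 1702 on the other arrays, and the fewest spots well above background, 39375. The mean of 11 tested endoderm and yolk sac markers was 0.30, -0.34 and 0.060 in pre-heartbeat replicates 1 to 3 and -0.025, -0.0069 and -0.56 in post-heartbeat replicates 1 to 3. On the low array, 2 of these markers, Afp and Amn, were below pre-heartbeat replicate 3 by 2 fold or more. The mean of 6 tested paraxial mesoderm markers was -2.47 against -1.89, with such a gap for 3 of them, and that of 16 cardiac markers was 2.47 against 2.52, with such a gap for none. Within 2 percentage points of its own probe GC content, the gap of Fos was at percentile 0.209, that of Jun at 0.332 and that of Egr1 at 2.81. The part of dim signal or of other tissue in the low values of Fos, Jun and Egr1 was not tested.

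Related genes were taken from 6 further lists. Of 11 tested AP-1 and ATF subunits outside the set, 0 passed the limma threshold, and their median log2 difference was 0.16. The most different were the small Maf proteins Maff and Mafg, the latter at 0.52 (SE 0.32, limma adjusted p = 0.866). Maff was at -6.34, -6.13 and -6.67 before and -5.35, -5.82 and -5.78 after heartbeat initiation, without overlap. Maff was not well above background on any pre-heartbeat array and entered the tests only through the post-heartbeat group, so its lack of overlap is no result. Its log2 difference was 0.73 (SE 0.21, limma adjusted p = 0.354), or 1.66 fold. Its pre-heartbeat level is a bound, taken on each array as the higher of the dimmest detected signal and its own. Its own signal was the higher on each, so the bound gave the same 1.66 fold, with the same error. Of 17 other immediate early transcription factors, 0 passed, with a median of 0.21. Nr4a1, an orphan nuclear receptor, differed by 0.70 (SE 0.24, limma adjusted p = 0.531), with -1.57, -2.32 and -1.49 before and -1.11, -0.97 and -1.22 after heartbeat initiation. Ier5 differed by 0.45 (SE 0.30, limma adjusted p = 0.866) with overlapping groups.

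Among 31 other effectors and feedback inhibitors, again 0 passed, and 19 were higher in the mean, with a median of 0.098. Dusp2, a phosphatase of nuclear ERK, had the highest difference of this list, 1.07 (SE 0.31, limma adjusted p = 0.375), and the blocked fit gave 0.82 (SE 0.16, limma adjusted p = 0.058). Its signal was -3.32, -4.18 and -3.81 in pre-heartbeat replicates 1 to 3 and -2.29, -2.55 and -3.27 in post-heartbeat replicates 1 to 3, without overlap. Arc, the activity-regulated cytoskeletal gene, followed with 0.99 (SE 0.29, limma adjusted p = 0.364) and did not overlap either. Over all 19299 tested probes 754 (3.91%) were higher and 598 lower at an unadjusted limma p under 0.05, and over the 31 genes of this list it was 4 and 0. The 4 were Dusp2, Arc, Dusp5 (0.54, limma adjusted p = 0.424) and Spry2 (0.53, limma adjusted p = 0.444). Of other inhibitors of ERK signaling in the list, named for comparison after their values were seen, Dusp6 differed by 0.16, Dusp4 by 0.29, Spry4 by 0.088 and Errfi1 by -0.054, each with overlapping groups. The remaining tested Dusp genes of the list, also named after their values were seen, were Dusp8 and Dusp14. Dusp8 differed by 0.25 with overlapping groups, and Dusp14 by 0.31 (SE 0.15, limma adjusted p = 0.806) without overlap. Of the 31 genes, 5 had groups apart with post-heartbeat higher, Dusp2, Arc, Dusp5, Spry2 and Dusp14, beside 5.38% of all tested probes.

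Of 21 tested kinases and promoter-binding factors upstream of these genes, 0 passed the limma threshold and 0 had an unadjusted p under 0.05, with a median log2 difference of -0.021. Mef2d, a MADS-box factor of muscle and other cells, differed by 0.73 (SE 0.33, limma adjusted p = 0.785), and the ETS factor Elk3 by -0.44 (SE 0.27, limma adjusted p = 0.866). The mean over the list was between -0.45 and -0.36 on each array before and between -0.41 and -0.33 after heartbeat initiation.

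In 2 lists, 1 gene each passed. The heat shock gene Hspb1, a small chaperone of muscle and other cells, was at -2.14, -2.20 and -2.06 before and -0.48, -0.083 and -0.54 after heartbeat initiation, a rise of 1.77 (SE 0.17, limma adjusted p = 0.024). The water channel gene Aqp1, from the list of flow-responsive endothelial genes, was at -4.12, -3.87 and -3.98 before and -2.86, -2.68 and -2.65 after, a rise of 1.26 (SE 0.14, limma adjusted p = 0.042). Neither passed when any 1 array was left out. The inducible chaperone Hspa1b was at -3.42, -6.10 and -3.92 before and -3.24, -3.73 and -4.07 after heartbeat initiation, a difference of 0.80 (SE 0.66, limma adjusted p = 0.866). As for Fos, its low array was pre-heartbeat replicate 2, which was below replicate 3 by -2.18. Unlike Fos, Hspa1b was well above background on only 2 of the 3 pre-heartbeat arrays, so this gap may hold a value near the floor. Adm, encoding the vasoactive peptide adrenomedullin, differed by 0.55 (SE 0.24, limma adjusted p = 0.737). The medians of the heat shock and flow-responsive lists were -0.0011 over 13 and 0.25 over 9 tested genes.

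**Figure D4:**
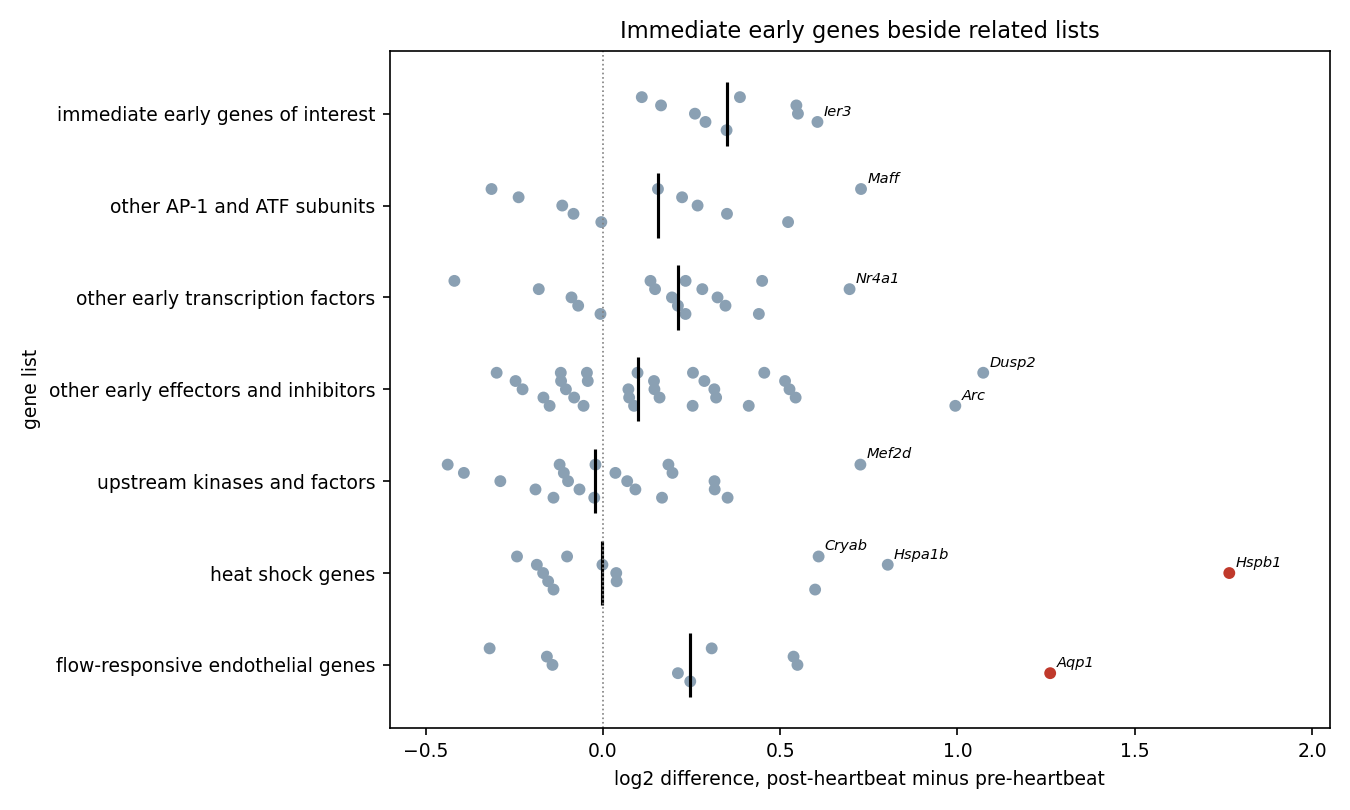
Each point is the log2 difference, post-heartbeat minus pre-heartbeat, of 1 tested gene in the set of immediate early genes (top row) or in 1 of the 6 related lists, with black lines at the list medians. Red marks the 2 genes past a limma adjusted p of 0.05, Hspb1 at 1.77 and Aqp1 at 1.26, and none of the immediate early genes is among them.

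The mean profile of the 9 genes over the arrays, each gene centred on its own mean, was 0.17, -0.67 and -0.041 in pre-heartbeat replicates 1 to 3 and 0.043, 0.30 and 0.20 in post-heartbeat replicates 1 to 3. Outside the set, 3557 named probes spanned 1 or more on the log2 scale. By the root mean square difference over the 6 arrays, the nearest genes to this profile were Akap1 at 0.081, Tom1 at 0.097, Slc37a1 at 0.10, Abcb10 at 0.11 and Pcbp3 at 0.11. Since the profile itself was lowest on pre-heartbeat replicate 2, so were these 5 genes, and none of them belonged to the other lists of early genes.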

How the data were processed

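One array was measured for each of 6 samples. The authors labeled total RNA with Cy3, hybridized it to 1-color Agilent rat arrays and quantified the spots with Agilent Feature Extraction 10.7.3.1. The values used were the deposited processed signals, an intensity after background subtraction that had not been normalized between arrays. A deposited table of ratios to a baseline, made by the authors after a shift to the 75th percentile, was used as an alternative on the log2 scale.

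Control spots and outlier spots were left out, log2 signals less the 75th percentile of the array were averaged over the spots of a probe, and a probe was tested if 1 group or both had it well above background on each of its 3 arrays. A gene in a list was represented by its tested probe with the highest mean. Groups were compared with limma 3.58.1 in R 4.3.3 over all tested probes, with Benjamini-Hochberg adjustment and a threshold of 0.05, and the slide was added as a block. Single probes were compared by exact permutation of the arrays. Of the 10 member probes, 9 carried a transcript found in the RefSeq table, under the same symbol. The fit was tested on simulated data. The genes and lists were chosen with earlier results of these data known. Except where the text says that genes were named after their values were seen, or names all of a small count, genes named from other lists were those past the adjusted threshold with or without the block and the 2 with the largest absolute difference, and from the marker lists only those that touch a result. Precision is limited by the number of arrays, and p-values set a difference against the spread between these samples. Since neither litter nor pooling is given, what this spread covers is not known. Alternatives are given in the closing section.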

Additional observations from a re-analysis of the deposited data

How the results depend on the processing

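No member passed the limma adjusted threshold under any of the 18 alternatives, and the median difference of the members ranged from 0.079 to 0.55 with each array left out in turn. Of 179 member values under alternatives, 177 kept their direction, and those of Jun (-0.29) and the first Egr1 probe (-0.23) turned without pre-heartbeat replicate 2. This count overstates stability, because some settings leave the differences as they are by design and alter only the errors or the adjustment. These are the replicate block, no filter, a filter on all 6 arrays, the intensity trend and the methods' test with adjustment. With each array left out in turn, Jun ranged from -0.29 to 0.55 and Egr1 from -0.23 to 0.85. The number of members in the methods' selection was 0 rather than 1 with normexp background correction and with quantile normalization, and was from 0 to 1 with each array left out, as was the number of members that differed between slides. The deviations of same-numbered arrays correlated at 0.65, -0.28 and 0.49. Correlations were positive for arrays on the same slide and negative for arrays on different slides. Arrays numbered 1 share a slide, as do those numbered 3, but those numbered 2 do not. These correlations therefore cannot show whether the replicate numbers pair the samples. With the number as a replicate block, 95 probes were higher and 49 lower and no member passed.

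Over all tested probes, 23 were higher and 4 lower. These numbers were 223 and 89 with the slide as a block, 43 and 7 with normexp correction, and 38 and 7 with an intensity trend. With no filter they were 1 and 0, and by the methods' test with Benjamini-Hochberg adjustment 0 and 0. Higher probes numbered 11 with quantile normalization, 12 with the percentile taken over detected probes, 10 with the authors' ratios and 5 after the median of probe GC bins was subtracted, a setting chosen after the data were seen. Each array left out in turn gave from 0 to 1 higher and from 0 to 1 lower. The 2 higher genes of the related lists became 1 with normexp correction, quantile normalization, the percentile over detected probes and the authors' ratios. They became 0 with no filter, the methods' test, the GC bins and each array left out. The cause was not tested. Dim probes such as Dusp1 and Klf2 limit what these arrays can show.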
